A study of Mus musculus with 58 samples.

Results

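The 10 genes described here prepare chromosomes for copying, and were followed through hematopoietic stem cells (HSCs) of differently fed mice and through HSCs in which the receptors Kdr and Bmpr1a had been knocked down. They were chosen by name, 10 of the 55376 genes in each RNA count table: Mcm2, Mcm3, Mcm4, Mcm5, Mcm6 and Mcm7, the subunits of the replicative helicase; Cdc6 and Cdt1, which load it; Gmnn, which encodes geminin, the inhibitor of Cdt1; and Mcm10, which acts when the helicase starts to unwind DNA. All 10 were counted in all 34 RNA libraries and all 10 passed the low-count filter in every comparison, so no member was lost. In the GRCm38 annotation, Mcm2 (ENSMUSG00000002870) lies at 6:88883474-88898780 on the minus strand, Mcm3 (ENSMUSG00000041859) lies at 1:20802968-20820312 on the minus strand, Mcm4 (ENSMUSG00000022673) lies at 16:15623897-15637400 on the minus strand, Mcm5 (ENSMUSG00000005410) lies at 8:75109569-75128439 on the plus strand, Mcm6 (ENSMUSG00000026355) lies at 1:128331590-128359664 on the minus strand. Mcm7 (ENSMUSG00000029730) lies at 5:138164583-138172422 on the minus strand, Mcm10 (ENSMUSG00000026669) lies at 2:4989714-5012791 on the minus strand, Cdt1 (ENSMUSG00000006585) lies at 8:122568015-122573554 on the plus strand, Cdc6 (ENSMUSG00000017499) lies at 11:98907801-98923940 on the plus strand and Gmnn (ENSMUSG00000006715) lies at 13:24751845-24761923 on the minus strand.

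Male C57BL/6 mice gave the cells of the 6 diet groups, which carried no transgene or deletion. OAL mice were fed ad libitum to 24 to 26 months of age, OCR mice had 40% of their food withheld from 3 to 4 months of age onward, and OCRRF mice were OCR mice returned to free feeding for 4 weeks. YAL mice were young adults of 3 to 4 months fed ad libitum, YCR mice went through 4 weeks of restriction at that age (20% in the first week, then 40% for 3 weeks), and YCRRF mice were refed after it. There were 4 RNA libraries a group, and 2 in OCRRF. HSCs were sorted as Lin-Sca-1+c-Kit+ cells that lacked CD34 and Flk2 and carried CD150. For the knockdowns, HSCs from aged mice were transduced with lentiviral shRNAs and transplanted, about 500 cells a recipient, into irradiated young female hosts, and the donor HSCs were sorted again at the end as CD48-CD150+ cells. GFP-marked Kdr shRNA (4 libraries) was compared with its GFP scramble (2). Kdr shRNA joined with Bmpr1a shRNA1 or shRNA2 (2 libraries each, pooled as the double knockdown) was compared with the double scramble (2). All 12 of these libraries therefore share transduction, transplantation and an irradiated host.

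Origins of replication are licensed when the origin recognition complex, Cdc6 and Cdt1 load pairs of MCM rings onto DNA, from late mitosis through G1. Rings wait there until kinases, Cdc45 and the GINS complex turn them into moving helicases in S phase. Geminin binds Cdt1 after that and blocks a further round. E2F factors drive most of these genes as cells leave quiescence, and HSCs of adult mice are mostly quiescent. In bulk RNA, fewer cells expressing a gene and less RNA in each cell cannot be told apart, so each value below is an average over the sorted population.

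The promoters of the members are described next. Whether their sequence bears on the differences between diets was not tested. A promoter sequence was found in RefSeq (GRCm38.p6) for 8 of the 10 members, Mcm7 with 2 start sites, giving 9 windows of 300 bases that run from 250 bases before the start to 50 after it. Mcm4 and Gmnn had no entry. Both strands were searched for the classic E2F core word TTGGCGC, as well as for the related word TTCGCGC, the related word TTCCCGC and the related word TTGCCGC. The box CCAAT, bound by NF-Y, was searched in the same way. The words can overlap when they meet head to head, and each is counted. At least 1 E2F word was in 7 of the 9 windows, against 9.57% of all 32851 RefSeq promoter windows, and at least 2 were in 5 of 9, against 1.18% of all. Those 5 windows follow, on the gene's own strand, with the E2F words in capitals.
Mcm3 (chr1:20820263-20820562, minus strand): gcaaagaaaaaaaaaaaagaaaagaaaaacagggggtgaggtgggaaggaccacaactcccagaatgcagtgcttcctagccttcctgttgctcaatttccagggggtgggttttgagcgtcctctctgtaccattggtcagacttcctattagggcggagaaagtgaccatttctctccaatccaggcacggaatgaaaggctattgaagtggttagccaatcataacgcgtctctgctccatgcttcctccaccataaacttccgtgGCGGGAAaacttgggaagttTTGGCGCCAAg
Mcm5 (chr8:75109259-75109558, plus strand): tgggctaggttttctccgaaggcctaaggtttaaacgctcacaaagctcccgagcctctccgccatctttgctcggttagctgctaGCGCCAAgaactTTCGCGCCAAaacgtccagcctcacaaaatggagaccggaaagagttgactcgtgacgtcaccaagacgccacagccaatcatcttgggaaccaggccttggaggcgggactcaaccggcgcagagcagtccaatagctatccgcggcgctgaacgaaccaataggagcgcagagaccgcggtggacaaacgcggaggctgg
Mcm6 (chr1:128359656-128359955, minus strand): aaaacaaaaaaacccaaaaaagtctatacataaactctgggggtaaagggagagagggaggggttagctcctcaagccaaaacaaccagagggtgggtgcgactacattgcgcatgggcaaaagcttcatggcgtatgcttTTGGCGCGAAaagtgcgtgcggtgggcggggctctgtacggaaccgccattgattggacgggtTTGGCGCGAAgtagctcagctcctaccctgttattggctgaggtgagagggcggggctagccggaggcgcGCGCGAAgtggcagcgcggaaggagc
Mcm7 (chr5:138171834-138172133, minus strand): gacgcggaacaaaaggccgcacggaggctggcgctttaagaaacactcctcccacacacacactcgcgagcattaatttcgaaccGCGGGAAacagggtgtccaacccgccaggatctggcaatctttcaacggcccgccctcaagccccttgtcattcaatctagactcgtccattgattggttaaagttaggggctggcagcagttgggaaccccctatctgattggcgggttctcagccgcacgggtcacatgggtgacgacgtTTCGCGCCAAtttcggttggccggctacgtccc
Cdt1 (chr8:122567765-122568064, plus strand): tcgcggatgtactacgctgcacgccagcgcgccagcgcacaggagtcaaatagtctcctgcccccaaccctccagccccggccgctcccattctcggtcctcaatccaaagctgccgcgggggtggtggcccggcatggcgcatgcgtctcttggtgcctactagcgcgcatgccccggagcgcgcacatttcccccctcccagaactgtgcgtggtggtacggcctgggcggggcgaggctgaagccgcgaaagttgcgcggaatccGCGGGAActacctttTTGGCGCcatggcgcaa

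In Mcm6 the 5 words lay at 3 places, with 2 of them head to head at 109 and again at 46 bases before the start. In Mcm5 they lay 164 to 149 bases before the start. In Mcm3 and Cdt1 they lay after it, from base 19 on in Mcm3 and from base 18 on in Cdt1. The Cdc6 window and the other Mcm7 window held 1 word each. The Cdc6 window belongs to the downstream start (11:98908151). The upstream Cdc6 start (11:98907801) had no window and was not searched. The Mcm2 and Mcm10 windows held none of these words, although Mcm10 had 3 CCAAT boxes. The Mcm10 window ended in ttggcg, and a TTGGCGC that crosses the edge of a window would not have been found. CCAAT was in 7 of the 9 windows and in 37.4% of all. GC content ran from 48.7% to 66.7% in the members' windows and had a median of 52.7% over all; of the 21552 windows with at least 48.7% GC, 13.6% held an E2F word and 1.76% held 2 or more. A match describes letters in the window and does not show that a factor was bound.

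The first comparison asked how lifelong restriction changed old HSCs. All 10 members were higher in OCR than in OAL, by 1.49-fold for Mcm7 up to 2.60-fold for Cdc6. With edgeR's quasi-likelihood test and Benjamini-Hochberg adjustment over 27150 genes, all 10 passed the threshold (adjusted p below 0.05 and a fold above 1.2), where 5.57% of all genes passed and 2.54% passed as higher. The median log2 fold change was 0.93 for the members and 0.02 for all genes tested. For all 10, the lowest OCR library lay above the highest OAL library, which 4.24% of the genes tested also did.

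The ring subunits are the most abundant of the 10. Per kilobase of annotated exon, the OAL means were 55.8 ± 4.51 CPM (read counts scaled to the library total, with TMM) for Mcm6, 42.6 ± 1.85 for Mcm3, 31.6 ± 2.34 for Mcm7, 28.2 ± 2.62 for Mcm4, 19.1 ± 1.94 for Mcm5 and 16.2 ± 1.64 for Mcm2 (SD, n = 4). Gmnn stood at 10.5 ± 1.13, Cdt1 at 5.95 ± 0.23, Cdc6 at 2.43 ± 0.28 and Mcm10 at 1.04 ± 0.16 on the same scale. Mcm7 and Mcm4 differed by less than the sum of their SDs, as did Mcm5 and Mcm2, and the other neighbours in this order lay further apart. The length used joins the exons of all annotated transcripts, so a gene with long rare exons reads lower on this scale than its main transcript would.

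The ring subunits were read library by library. Mcm5, which closes the ring against Mcm2, had 82.5, 68.0, 83.0 and 71.1 CPM in the 4 OAL libraries and 189, 199, 147 and 126 in the 4 OCR libraries, a log2 fold change of 1.13 ± 0.11 (SE, adjusted p = 3.83e-08). Mcm2 had 119.7, 114, 121 and 96.2 CPM in OAL and 214, 243, 193 and 162 in OCR, a log2 fold change of 0.87 ± 0.10 (adjusted p = 6.87e-07). Every OCR library lay above every OAL library for both genes, and OCR replicates 3 and 4 were the lower pair of the OCR group for both.

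Mcm7 had the smallest difference of the 10, with 151, 139.8, 126 and 141 CPM in OAL and 221, 239, 195 and 169.6 in OCR (0.58 ± 0.09 on the log2 scale, adjusted p = 1.12e-04). Mcm3 had 169, 153, 161 and 156 and 270.5, 299, 225 and 214 CPM (0.67 ± 0.09, adjusted p = 1.15e-05). For these 2 subunits the OCR libraries were again all above the OAL libraries. Mcm4 had 114, 94.8, 102 and 94.1 and 177, 202, 158 and 138 CPM (0.75 ± 0.10, adjusted p = 4.74e-06), and Mcm6 had 275, 250.5, 279.9 and 235 and 459, 507, 386 and 371 CPM (0.74 ± 0.09, adjusted p = 2.65e-06). The fitted differences of the 6 subunits thus ran from 0.58 to 1.13; differences between subunits were not tested.

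The loaders and the inhibitor of loading rose alongside the ring. Cdc6 was at 13.7, 10.9, 12.3 and 14.1 CPM in OAL and at 40.6, 33.3, 27.9 and 29.1 in OCR (1.38 ± 0.13 on the log2 scale, adjusted p = 1.12e-08). Cdt1 was at 18.6, 17.7, 18.9 and 19.5 in OAL and at 41.2, 42.0, 33.7 and 30.2 in OCR (0.99 ± 0.11, adjusted p = 3.74e-07). Both groups were tight for Cdt1 in OAL and wider in OCR, without overlap. Gmnn was at 17.4, 13.4, 15.6 and 14.8 CPM in OAL and at 39.7, 37.8, 26.2 and 24.2 in OCR (1.08 ± 0.14, adjusted p = 3.77e-06). Mcm10, the least abundant member, was at 8.62, 6.59, 9.34 and 7.45 and 22.4, 16.8, 17.6 and 15.2 CPM (1.19 ± 0.14, adjusted p = 1.32e-06). A read-through gene, Gm20388, covers the whole of Cdt1 on the same strand in the annotation and is listed at 0 in all 34 libraries.

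**Figure D1:**
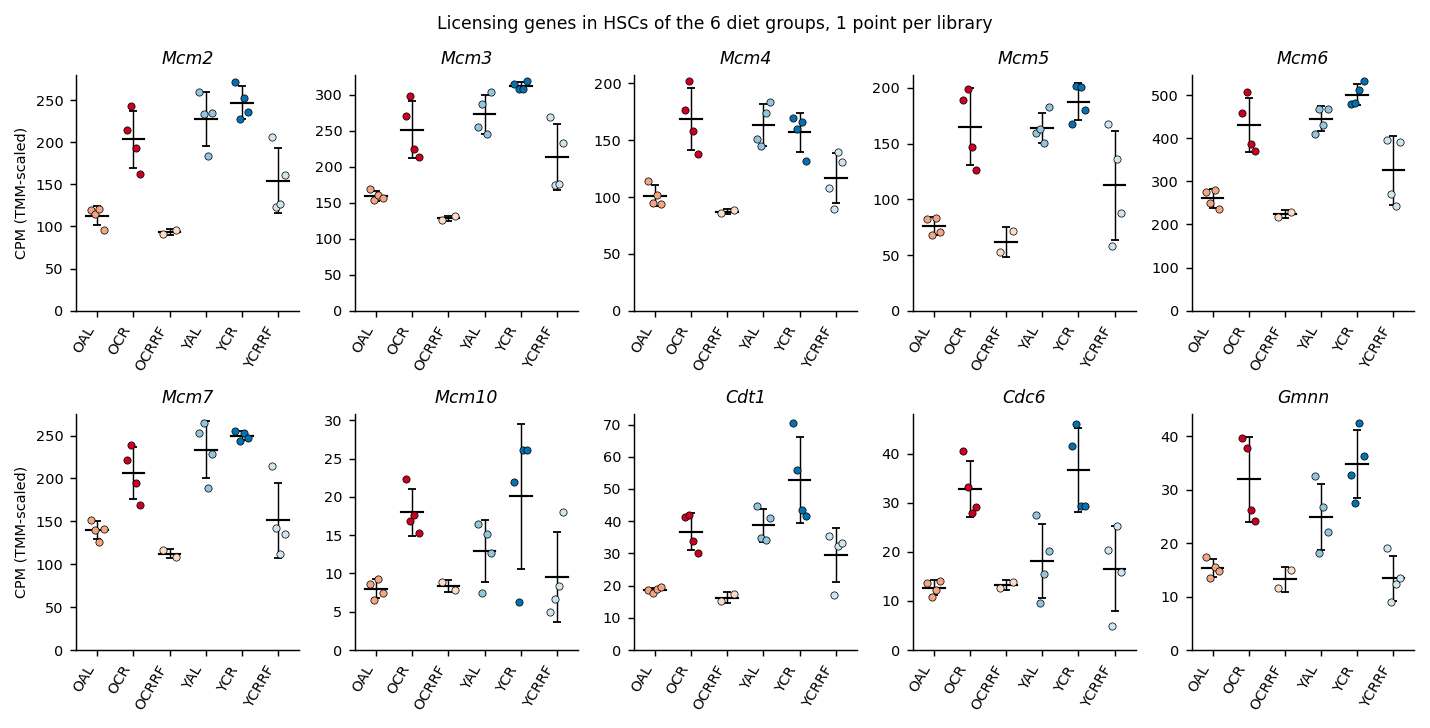
Level of each licensing gene (CPM scaled by TMM, linear axis from 0) in every RNA library of the 6 diet groups, 1 point per library; the horizontal line is the group mean and the bar 1 SD (4 libraries a group, 2 in OCRRF). In each panel the OCR points lie above all OAL and OCRRF points. YCRRF points lie wholly below the YCR points for 7 of the 10 genes.

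The balance of geminin to its target was read within each library. The log2 ratio of Gmnn counts to Cdt1 counts within a library, taken after adding 0.5 to each count and not dependent on how libraries are scaled, was -0.29 ± 0.14 in OAL and -0.22 ± 0.14 in OCR (SD, n = 4), a difference of 0.07 (two-sided exact permutation test, p = 0.54, adjusted over 3 such tests 0.77). In the young groups it was -0.66 ± 0.30 in YAL, -0.59 ± 0.56 in YCR and -1.13 ± 0.25 in YCRRF. YCR differed from YAL by 0.07 (exact permutation p = 0.77, adjusted 0.77). YCRRF was lower than YAL by a log2 difference of -0.47 (exact permutation p = 0.11, adjusted 0.34). With 4 libraries against 4 this test cannot give a p under 0.0286. Leaving out YAL replicate 2 turned the last difference into -0.56 with an exact permutation p = 0.0286 before adjustment, the smallest 3 against 4 allows.

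HSC markers summed to 2660 to 3632 CPM in the diet libraries. In OCR and OAL, granulocyte and monocyte markers summed to 216 to 286 and 241 to 347 CPM, erythroid markers to 52.5 to 82.9 and 46.6 to 236, megakaryocyte markers to 60.1 to 116 and 61.0 to 74.7, MPP markers to 119 to 155 and 129 to 160, and lymphoid markers to 34.3 to 41.5 and 36.8 to 40.1. No marker was at 0 in all libraries, and some were at 0 in part of the libraries, among them Cd48, Hba-a2, Elane, Ctsg, Cd79a, Cd3e, Cd3d, Il7r and Gp1bb. These ranges overlapped, as did those of the HSC markers, 2848 to 3389 CPM in OCR and 3094 to 3632 in OAL. Of single markers, 3 of 8 HSC genes were lower and 1 higher in OCR, and 3 of 8 erythroid genes were lower and 1 higher. Of 7 granulocyte and monocyte genes 1 was called, as lower, while 6 had a positive log2 fold change (median of the 7, 0.86). Of the MPP, lymphoid and megakaryocyte genes 0 were called. The part of these markers in the results was not tested.

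Refeeding was compared with continued restriction in old mice, and the members went back down. All 10 were lower in OCRRF than in OCR and all 10 passed the threshold, where 3.41% of 32577 genes passed and 2.71% passed as lower. Both OCRRF libraries lay below all 4 OCR libraries for every member, which with only 2 OCRRF libraries 10.8% of the genes tested also did. The members' median log2 fold change was -1.17 beside 0.11 for all genes, and relative to that shift it was -1.28, -1.28 and -1.27 with TMM, with DESeq2 size factors and with TMM factors from abundant genes. Other markers moved with this comparison. Megakaryocyte markers summed to 47.0 to 54.6 CPM in OCRRF and 60.1 to 116 in OCR, with 2 of 3 tested lower, and granulocyte and monocyte markers to 290 to 313 and 216 to 286 CPM, with 0 of 7 called; neither pair of ranges overlapped. HSC markers summed to 2789 to 2820 CPM in OCRRF and 2848 to 3389 in OCR, also without overlap, with 1 of 8 higher and 1 lower. Of 8 erythroid markers 3 were higher and 1 lower, of 6 lymphoid markers 1 was higher, and of 3 MPP markers 0 were called. Their part in the result was not tested.

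Among the ring subunits Mcm5 fell furthest, to 52.6 and 71.3 CPM in the 2 OCRRF libraries (-1.48 ± 0.16 on the log2 scale, adjusted p = 3.93e-08). Mcm7 fell least, to 116 and 109 CPM (-0.93 ± 0.13, adjusted p = 9.00e-06), so the subunits with the largest and smallest differences were the same as in OCR versus OAL, a comparison that shares the OCR libraries. Mcm2 was at 91.0 and 96.2 CPM (-1.18 ± 0.14), Mcm3 at 126 and 131 (-1.03 ± 0.13), Mcm4 at 85.8 and 88.8 (-1.01 ± 0.14) and Mcm6 at 217 and 229.9 (-1.01 ± 0.13). The loaders, geminin and Mcm10 fell as well, with no OCRRF library reaching an OCR library. Cdc6 fell to 12.6 and 13.9 CPM (-1.37 ± 0.17, adjusted p = 4.78e-07) and Gmnn to 11.6 and 14.9 (-1.34 ± 0.19, adjusted p = 4.81e-06). Cdt1 fell to 15.1 and 17.4 CPM (-1.24 ± 0.16, adjusted p = 1.30e-06) and Mcm10 to 8.90 and 7.85 (-1.16 ± 0.19, adjusted p = 5.65e-05).

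Refed old mice were then compared with old mice that had always fed freely. Of the 10 members, 2 passed the threshold in OCRRF versus OAL, both lower, where 4.14% of 31816 genes passed and 2.48% passed as lower. Mcm3 differed by -0.33 ± 0.07 on the log2 scale (adjusted p = 0.0276) and Mcm7 by -0.32 ± 0.08 (adjusted p = 0.037). In 6 members both OCRRF libraries lay below all 4 OAL libraries, as in 15.8% of all genes. The other subunits differed by -0.31 (Mcm5) to -0.23 (Mcm4) and Cdc6 and Mcm10 by 0.04 ± 0.15 and 0.06 ± 0.18, none of them past the threshold. The 2 calls were lost when any single one of the 6 libraries was left out, where 0.108% to 1.25% of all genes passed and the members' median stayed between -0.30 and -0.17; without either OCRRF library that group has 1 library, assumed to vary like the OAL libraries. With TMM factors from genes of at least 5 CPM 0 passed, whereas with DESeq2 size factors 6 passed, all lower, when 10.1% of all genes passed. The median of all genes in this comparison moved with the scaling, from 0.06 to 0.26, and the members' median relative to it stayed at -0.35. HSC markers summed to 2789 to 2820 CPM in OCRRF and 3094 to 3632 in OAL, with 2 of 8 lower. For MPP the sums were 118 to 125 and 129 to 160, with 0 of 3 called. For megakaryocyte they were 47.0 to 54.6 and 61.0 to 74.7, with 1 of 3 tested lower. For lymphoid they were 40.6 to 43.1 and 36.8 to 40.1, with 0 of 6 called. No pair of ranges overlapped. Of 7 granulocyte and monocyte markers 1 was higher and of 8 erythroid 0 were called. Their part was not tested.

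**Figure D2:**
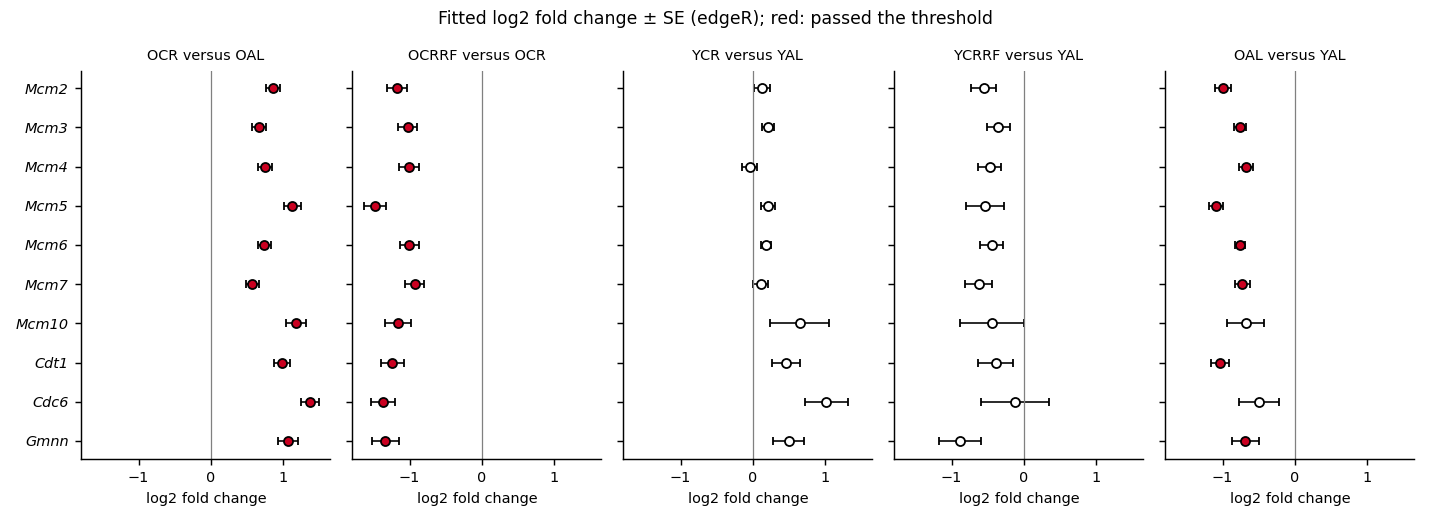
Fitted log2 fold change of each licensing gene with its standard error (edgeR) in 5 comparisons of the diet groups; filled points passed the threshold, open points did not. All 10 points are filled in OCR versus OAL, on the right of 0, and in OCRRF versus OCR, on the left, while none is filled in YCR versus YAL or YCRRF versus YAL and 8 are in OAL versus YAL.

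Short-term restriction in young mice asked for the response without old age. No member passed in YCR versus YAL with edgeR, where 0.364% of 18680 genes did; 5 had an unadjusted p below 0.05, as did 9.29% of all genes, and DESeq2 called 1, Cdc6, and 1.2% of all genes. Of the 10 members, 9 had a positive log2 fold change, with a median of 0.21 beside 0.00 for all genes. Cdc6 had 27.5, 9.54, 15.6 and 20.1 CPM in YAL and 41.6, 46.0, 29.3 and 29.3 in YCR (1.02 ± 0.30 on the log2 scale, adjusted p = 0.26), and the DESeq2 adjusted p was 0.0314. The Cdc6 libraries did not overlap between the groups, nor did those of Mcm3 and Mcm6, which differed by 0.21 ± 0.08 and 0.19 ± 0.07; 2.49% of all genes had every YCR library above every YAL library. Mcm4 had 151, 145, 174 and 183 CPM in YAL and 169, 159.7, 166 and 132 in YCR, a log2 fold change of -0.04 ± 0.11. Mcm10 had 16.4, 7.40, 15.2 and 12.7 CPM in YAL and 22.0, 6.21, 26.1 and 26.1 in YCR (0.65 ± 0.41), with YCR replicate 2 far below its group. All 7 granulocyte and monocyte markers were negative in YCR versus YAL (median log2 fold change -1.18), as were 7 of 8 HSC markers (median -0.21). The 3 megakaryocyte markers tested were positive (median 0.67). Of these markers 0 were called, and their part in the result was not tested.

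Whether old and young HSCs answered restriction differently was tested directly, as the OCR-OAL difference minus the YCR-YAL difference. All 10 members had a larger increase in the old comparison, by a median of 0.54 on the log2 scale, but none passed the threshold in edgeR, where 0.0318% of 28328 genes did; 7 had an unadjusted p below 0.05, as did 8.8% of all genes. Mcm5 came closest, at 0.93 ± 0.18 (adjusted p = 0.0765), followed by Mcm4 at 0.80 ± 0.16 (adjusted p = 0.0987). DESeq2 called 4 members as larger in old mice, Mcm2, Mcm4, Mcm5 and Mcm6, and 0.456% of all genes. With only genes of at least 10 counts in every library, edgeR called Mcm4 and Mcm5, and 0.14% of all genes. The loaders gave smaller and less certain differences, 0.53 ± 0.22 for Cdt1 and 0.35 ± 0.34 for Cdc6. Age and length of restriction differed together in this contrast and cannot be told apart. Markers of other cells also differed in it. Of 7 granulocyte and monocyte markers 6 were positive and 1 negative (median 1.78), and of 6 lymphoid markers 1 was positive and 5 negative (median -0.62). Of these markers 0 were called, and their part in the result was not tested.

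Young refed HSCs had low and scattered levels. No member passed in YCRRF versus YCR with edgeR, where 0.0102% of 19535 genes passed; all 10 were lower, by a median of -0.75, and 9 had an unadjusted p below 0.05, as did 7.27% of all genes. DESeq2 called 5 as lower (Mcm2, Mcm3, Mcm6, Mcm7 and Gmnn) and 0.848% of all genes. Without a filter on low counts 7 passed, with 0.617% of all genes, and 6 when the 6 diet groups were fitted together, with 1.51%. Gmnn had 32.7, 27.5, 42.5 and 36.4 CPM in YCR and 19.0, 8.92, 12.3 and 13.5 in YCRRF, a log2 fold change of -1.39 ± 0.27 (adjusted p = 0.19), with no overlap between the groups. In 7 members every YCRRF library lay below every YCR library, as in 2.53% of all genes. All 10 were also lower in YCRRF than in YAL, a comparison that shares the YCRRF libraries, by a median of -0.46. No member passed there, and 0% of 19334 genes did; 6 had an unadjusted p below 0.05, as did 3.69% of all genes, and DESeq2 called 0 members. In 2 members every YCRRF library lay below every YAL library, as in 1.94% of all genes. Gmnn differed from YAL by -0.89 ± 0.29 and Mcm7 by -0.63 ± 0.19 (both adjusted p = 0.995). In Mcm5 the 4 YCRRF libraries ran from 58.5 to 168 CPM, wider than the 151 to 182 CPM of YAL. The summed granulocyte and monocyte markers ran from 343 to 1305 CPM in YCRRF, from 124 to 389 CPM in YCR and from 132 to 598 CPM in YAL. All 7 were positive in YCRRF versus YCR (median log2 fold change 0.87) and 4 of 7 in YCRRF versus YAL, with 0 called. In YCRRF versus YCR, 7 of 8 HSC markers were positive (median 0.29) and 6 of 8 erythroid markers negative (-0.45). All 3 MPP markers (-0.63), the 3 lymphoid markers tested (-1.82) and the 3 megakaryocyte markers tested (-0.63) were negative, again with 0 called. The part of these markers in the result was not tested.

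Old and young freely fed mice were compared for age. In OAL versus YAL 8 of 10 members were lower, where 14.8% of 23525 genes passed and 7.93% passed as lower, and the members' median was -0.74 beside 0.05 for all genes. Mcm5 had 159, 163, 151 and 182 CPM in YAL and 82.5, 68.0, 83.0 and 71.1 in OAL (-1.09 ± 0.09 on the log2 scale, adjusted p = 8.51e-05). Cdt1 had 44.8, 34.9, 34.1 and 41.1 CPM in YAL and 18.6, 17.7, 18.9 and 19.5 in OAL (-1.04 ± 0.13, adjusted p = 9.47e-04). For the 8 genes every OAL library lay below every YAL library, as in 12.3% of all genes. Mcm2 was at 259, 234, 184 and 234 CPM in YAL and 119.7, 114, 121 and 96.2 in OAL (adjusted p = 4.45e-04). Mcm3 differed by -0.76 ± 0.08, Mcm4 by -0.67 ± 0.10, Mcm6 by -0.76 ± 0.08 and Mcm7 by -0.73 ± 0.10. Gmnn differed by -0.69 ± 0.19 (adjusted p = 0.0344) and lost the call with TMM factors from abundant genes (adjusted p = 0.0751) and without any single OAL library (0.0691 to 0.10) or YAL replicate 1 (0.0540). Mcm10 (-0.68 ± 0.26) and Cdc6 (-0.50 ± 0.28) did not pass; both passed without YAL replicate 2, where 10 members and 20.4% of all genes were called.

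Old and young libraries differed in more than age. Between 42071 and 46646 genes had a count in the 10 old libraries and between 22209 and 33496 in the 12 young ones, and the labels give no batch for RNA libraries, so age and library making cannot be told apart in that comparison. MPP markers, the genes of the multipotent progenitors that the sort leaves out, summed to 129 to 160 CPM in OAL and 173 to 223 CPM in YAL and all 3 were lower in OAL. Of 7 granulocyte and monocyte markers 3 were lower and 1 higher (median log2 fold change -4.20), of 8 erythroid markers 3 were lower, of 5 lymphoid markers tested 3 were lower and 2 higher, and of the HSC and megakaryocyte markers 0 were called. Their part in the result was not tested. The OCR and YAL means (± SD) of the ring subunits, a pair of groups that was not tested, were 203 ± 34.2 and 228 ± 31.7 CPM for Mcm2, 252 ± 39.7 and 273 ± 27.4 for Mcm3, 169 ± 27.3 and 163 ± 18.3 for Mcm4, 165 ± 34.7 and 164 ± 13.5 for Mcm5, 431 ± 63.5 and 445 ± 28.9 for Mcm6 and 206 ± 30.4 and 234 ± 33.7 for Mcm7.

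Mki67, a marker of cells in cycle, was read beside the members. It was at 30.7, 39.5, 33.3 and 33.9 CPM in OAL and at 119.9, 143.4, 98.2 and 108.3 in OCR, a log2 fold change of 1.79 ± 0.11 (adjusted p = 1.30e-11). It returned to 36.7 and 35.5 CPM in OCRRF (-1.76 ± 0.15, adjusted p = 3.38e-10). Between OAL and YAL it differed by 0.15 ± 0.36 (adjusted p = 0.82). The YAL libraries were at 38.0, 39.2, 8.61 and 39.1 CPM, so replicate 3 lay below every OAL library and the other 3 lay above 3 of the 4 OAL libraries. In YCR, Mki67 was at 69.0, 88.9, 49.1 and 52.2 CPM. Every YCR library lay above every YAL library, as in 2.49% of all genes. The log2 fold change of Mki67 in YCR versus YAL was 1.07 and did not pass the threshold. In YCRRF it was at 44.2, 17.5, 11.2 and 33.3 CPM. The difference between Mki67 and the members was not tested.

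**Figure D3:**
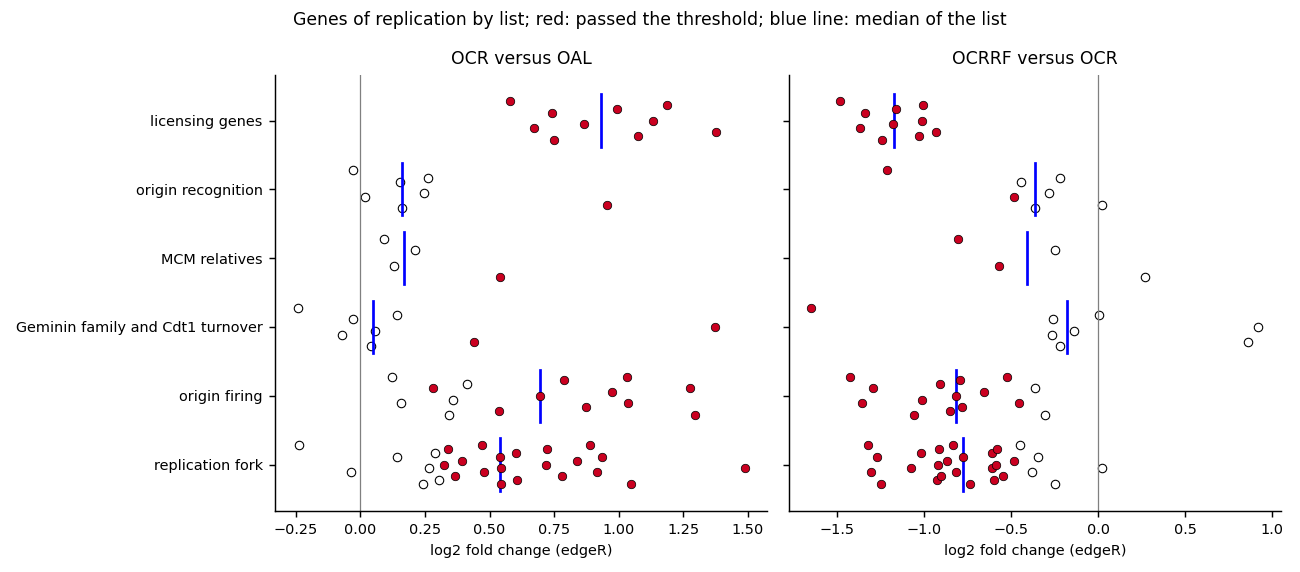
Fitted log2 fold change (edgeR) of the licensing genes and of 61 other replication genes in 5 lists, in OCR versus OAL (left) and OCRRF versus OCR (right), 1 point per gene; filled points passed the threshold and the vertical line is the median of the list. In the left panel 10 of 15 origin firing and 20 of 27 fork genes are filled, against 1 of 7 origin recognition genes; in the right panel 13, 22 and 2 are filled, and the origin recognition median is -0.36.

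The rest of the replication machinery was described from 5 lists of 61 genes. In OCR versus OAL 34 of the 61 were higher and 0 lower, with a median of 0.39, where 2.54% of all genes passed as higher. In OCRRF versus OCR 40 of the 61 were lower and 0 higher, with a median of -0.61, where 2.71% of all genes passed as lower. Fitting all diet groups together left 9 called in OCR versus OAL and 5 in OCRRF versus OCR, and the second count was 21 without OCRRF replicate 1 and 27 without OCRRF replicate 2. Shares of all genes called in these alternative fits are not given here. The lower counts therefore cannot be read as particular to these genes. Counts differed between lists. Origin recognition, the complex that marks origins, had 1 of 7 higher in OCR (median 0.16), and that gene was Orc1, its cell-cycle regulated subunit (0.95 ± 0.16, adjusted p = 1.39e-04). It had 2 of 7 lower in OCRRF versus OCR, where Orc1 differed by -1.21 ± 0.21.

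Origin firing, which turns loaded rings into helicases, had 10 of 15 higher in OCR than in OAL (median 0.69) and 13 of 15 lower after refeeding (median -0.82). Ticrr, which recruits Cdc45, was higher by 1.30 ± 0.13 (adjusted p = 7.64e-08), and Ccne1, cyclin E1, by 1.28 ± 0.18 (adjusted p = 1.35e-05). Replication fork genes had 20 of 27 higher (median 0.54) and 22 of 27 lower after refeeding (median -0.78). Clspn, claspin of the fork checkpoint, had the largest increase at 1.49 ± 0.15 (adjusted p = 6.36e-08), and Timeless, of the fork protection complex, rose by 1.05 ± 0.14 (adjusted p = 4.37e-06).

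Relatives outside the replicative ring were counted separately. Of Mcm8, Mcm9, Mcmbp and Mcmdc2, only Mcm8, which acts in homologous recombination, passed in OCR versus OAL (0.54 ± 0.12, adjusted p = 0.00399); Mcm9 differed by 0.13 ± 0.08. Of the 8 genes of the geminin family and of Cdt1 turnover, 2 were higher: Dtl, the adaptor that brings Cdt1 to its ubiquitin ligase (1.37 ± 0.11, adjusted p = 9.75e-10), and Skp2, which also targets Cdt1 (0.44 ± 0.11, adjusted p = 0.017). The ligase's own scaffold and linker genes, Cul4a (-0.03 ± 0.08), Cul4b (0.04 ± 0.10) and Ddb1 (0.06 ± 0.08), did not pass. In the young comparisons 0 of the pathway genes passed with edgeR in YCR versus YAL and 0 in YCRRF versus YAL, and DESeq2 called 4 and 1.

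Genes that start close by on the other strand were also read. Prkdc, a DNA repair kinase gene, starts 466 bases from Mcm4 (16:15637400, minus strand) and was higher in OCR by 0.39 ± 0.10 (adjusted p = 0.0119), beside the 0.75 ± 0.10 of Mcm4, and differed after refeeding by -0.45 ± 0.13 (adjusted p = 0.0404). Ap4m1, an adaptor complex gene, starts 138 bases from Mcm7 (5:138171883, minus strand) and differed by 0.05 ± 0.09 in OCR versus OAL (adjusted p = 0.88) and by -0.19 ± 0.13 after refeeding. Mcm7 and Ap4m1 also overlap in the annotation, and whether reads were counted by strand is not given in the sources used here.

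Across the 22 diet libraries the members followed each other. After centring old and young libraries apart, the 45 pairs of members had Pearson correlations from 0.46 (Mcm7 and Mcm10) to 0.98 (Mcm3 and Mcm6), with a median of 0.84; libraries of a group and their scaling are shared by all genes, so these are descriptions. Each member's correlation with the mean of the 10, itself included, ran from 0.96 for Mcm2 to 0.70 for Mcm10. Of 12328 genes averaging 5 CPM or more, the 5 outside the list most like that mean were E2f1 (r = 0.96), Uhrf1 (0.96), Fen1 (0.95), Tk1 (0.95) and Tipin (0.95), over 22 libraries. E2f1, an E2F factor gene, was higher in OCR by 1.24 ± 0.13 (adjusted p = 1.18e-07) and differed after refeeding by -1.54 ± 0.18 (adjusted p = 1.54e-07).

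Chromatin at the promoters was measured in old HSCs, with OCR and OCRRF analysed here. An ATAC-seq peak overlapped the 500 bases on either side of a start in 9 of the 10 members, 10 peaks in all. None passed the study's thresholds in OCR versus OCRRF (edgeR, adjusted p below 0.05, fold above 1.5, mean log2 CPM above 1.5), where 0.221% of 123372 peaks did; 1 had an unadjusted p below 0.05, as did 11.7% of all peaks, and DESeq2 called 0 of the 10. That peak, at Cdc6 (chr11:98907333-98908111), had 18.6, 18.8, 16.5 and 21.1 CPM in OCR and 15.5 and 15.2 in OCRRF, a log2 difference of 0.29 ± 0.12 (adjusted p = 0.30). At Mcm5 (chr8:75108587-75109854) the peak had 70.6, 65.5, 66.9 and 69.7 CPM in OCR and 71.2 and 67.5 in OCRRF, a log2 difference of -0.02 ± 0.06. The other 8 peaks differed by -0.10 to 0.10. The median over the 10 peaks was 0.0007, beside 0.0064 over all peaks, both as OCR minus OCRRF.

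All 10 peaks were among the stronger ones, between percentiles 89.1 and 98.8 of mean CPM over 131918 peaks. H3K4me3, a mark of active promoters, was read in 2 OCR libraries as the signal per base over the 750 bases after a start. It was 40.0 and 39.7 at Gmnn, 40.3 and 38.1 at the upstream start of Mcm7 and 28.1 and 28.4 at Mcm2, against medians of 10.2 and 9.64 over 31552 promoters. Cdc6 had 13.4 and 13.9 at its upstream start and 5.03 and 5.12 at its downstream start, and Mcm10 had 16.3 and 16.9 at its upstream start and 3.71 and 4.78 at its downstream start. H3K27me3, a mark of silenced promoters, was between 0.05 and 0.41 at every start of the members, at or below percentile 57.4 of all promoters. These marks had OCR libraries only here, so no comparison was made.

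**Figure D4:**
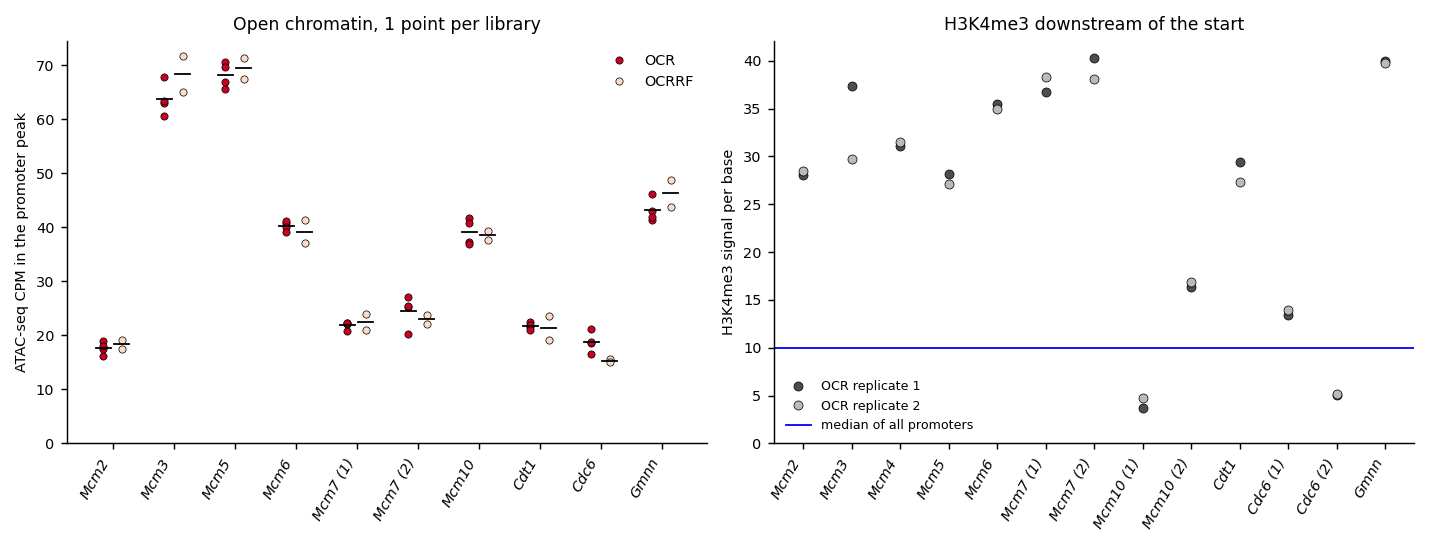
Left, ATAC-seq CPM in each promoter peak of the licensing genes, 1 point per library (4 OCR, 2 OCRRF) with the group mean as a line; Mcm7 has 2 peaks, numbered by position. Right, H3K4me3 signal per base after each start in 2 OCR libraries, with starts of the same gene numbered by position and the line at the median of all promoters. The OCR and OCRRF points share their ranges at most promoters, and H3K4me3 is above the line at a start of every member.

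PU.1, a transcription factor of blood cells that binds GGAA sites, had a peak with its summit within 1 kb of a start at 2 members. At Mcm7 a peak was called in OCR replicates 1 and 2 (chr5:138171143-138171428 and chr5:138171110-138171386), with fold enrichments of 6.53 and 8.22, and in OAL replicate 2 with 6.15. At Cdc6 a peak was called in OCR replicate 1 alone (chr11:98907491-98907712), with 5.32. Neither OCRRF library had a peak at a member. The PU.1 libraries taken here as OAL are titled OWT in the labels. The labels give replicate 2 of each group a batch of its own, and within it the Mcm7 peak was called in OAL and OCR and not in OCRRF. The libraries held 2262 to 5464 peaks, and between 1.93% and 4.93% of genes had a peak this close to a start, highest in OCR replicate 1, and the number of peaks called moved with it.

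Knockdown of the receptors was checked first at the targets. Kdr, a VEGF receptor, was at 6.04 and 6.07 CPM in the GFP scramble and at 1.93, 2.21, 3.28 and 2.03 CPM under Kdr shRNA (-1.35 ± 0.25 on the log2 scale, adjusted p = 0.25). In the double experiment Kdr was at 3.97 and 4.62 CPM in the scramble and at 1.24 and 0.56 and 1.60 and 1.35 CPM with shRNA1 and shRNA2. Kdr was below its scramble in every knockdown library, but did not pass the adjusted threshold in either comparison. Bmpr1a, a BMP receptor, was at 5.21 and 4.43 CPM in the double scramble, 4.44 and 0.66 with shRNA1 and 2.22 and 0.60 with shRNA2, so shRNA1 replicate 1 overlapped the scramble.

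No licensing gene passed the threshold in either knockdown. In Kdr knockdown versus GFP scramble all 10 had a positive log2 fold change, with a median of 0.17 beside 0.00 for all genes, and 0 passed, where 0.0149% of 20098 genes did; 2 had an unadjusted p below 0.05, as did 8.9% of all genes, and DESeq2 called 0. Mcm10 had 32.0 and 27.8 CPM in the scramble and 45.0, 35.6, 34.3 and 37.3 under Kdr shRNA (0.35 ± 0.13, unadjusted p = 0.0284, adjusted p = 0.51). Mcm6 had 701 and 638 and 819.5, 718, 759 and 755 CPM (0.19 ± 0.07, adjusted p = 0.51). For these 2 genes every Kdr shRNA library lay above both scrambles, as in 10.6% of all genes. Mcm2 (0.06 ± 0.10) and Cdt1 (0.03 ± 0.14) differed least. HSC markers were negative in 8 of 8 genes and summed to 2257 to 2480 CPM under Kdr shRNA and 2771 to 2841 in the scramble. MPP markers were positive in 3 of 3 and summed to 493 to 589 and 399 to 475 CPM, and lymphoid markers to 36.4 to 49.8 and 29.3 to 35.8 CPM. None of these ranges overlapped, 0 of the markers were called, and their part in the result was not tested.

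The double knockdown gave a median of 0.01 beside 0.00 for all genes, with 6 members positive and 4 negative. No member passed, where 0.00498% of 20072 genes did, and 1 had an unadjusted p below 0.05, as did 9.85% of all genes; DESeq2 called 0. That gene, Mcm4, had 279 and 268 CPM in the double scramble, 296 and 296 with shRNA1 and 299 and 351 with shRNA2 (0.18 ± 0.08, adjusted p = 0.50), every knockdown library above both scrambles, as in 10.6% of all genes. Gmnn had 59.3 and 55.3 CPM in the scramble and 57.0 and 64.8 and 57.2 and 75.5 with the 2 hairpins (0.15 ± 0.12). The response to the double knockdown minus that to Kdr knockdown alone had a median of -0.12 and 0 members passed, as did 0% of 21250 genes, with 0 members and 3.58% of all genes at an unadjusted p below 0.05; the largest difference was -0.36 ± 0.22 for Cdc6 (adjusted p = 1.000). In the 5 pathway lists 0 of the 59 genes tested passed in either knockdown. MPP markers summed to 592 to 925 CPM in the double knockdown and 496 to 541 in its scramble, and lymphoid markers to 43.2 to 54.8 and 30.9 to 38.6 CPM, without overlap and with 0 called. All 7 granulocyte and monocyte markers were negative (median log2 fold change -1.78), as were 7 of 8 HSC markers, with 0 called. Under Kdr shRNA alone the same 7 markers were positive (median 1.83). In the double response minus the Kdr response, these 7 were negative and all 8 HSC markers positive, with 0 called. The part of these markers in the results was not tested.

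**Figure D5:**
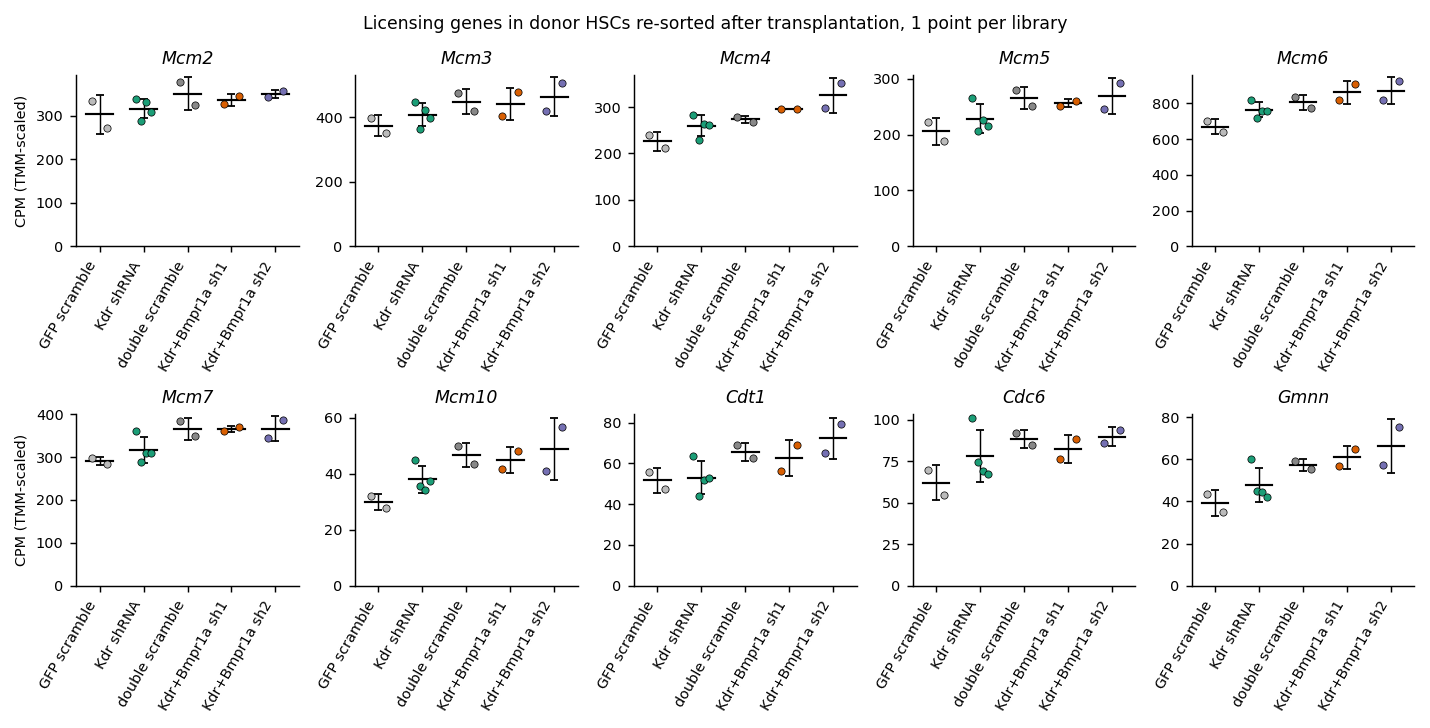
Level of each licensing gene (CPM scaled by TMM, linear axis from 0) in every library of the transplanted donor HSCs, 1 point per library; the line is the group mean and the bar 1 SD (4 libraries under Kdr shRNA, 2 in each other group). The Kdr shRNA points overlap the GFP scramble for 8 of the 10 genes, and the double knockdown overlaps its scramble for 9.

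The transplanted HSCs were read on their own scale. The summed level of the 10 members ran from 2111 to 3121 CPM in the 12 transplant libraries and from 737 to 1833 CPM in the 22 diet libraries. The 2 experiments were scaled apart and differed in sequencer, sort and host, so no test was made between them. The 2 scrambles were not tested against each other, and Mcm6 was at 701 and 638 CPM in the GFP scramble and 835 and 775 in the double scramble. Granulocyte and monocyte markers summed to 308 and 1060 CPM in the GFP scramble, 526 to 2204 under Kdr shRNA, 1604 and 2426 in the double scramble and 411 to 1724 in the double knockdown, and their part in these results was not tested.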

How the data were processed

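RNA-seq was made from sorted HSCs with a SMART-Seq low-input kit, ATAC-seq, H3K4me3, H3K27me3 and PU.1 ChIP-seq from old HSCs. The authors trimmed RNA reads (trim galore 0.4.3, cutadapt 1.12), aligned them to mm10 with STAR and deposited featureCounts read counts per GENCODE gene; use of strand and of multiply mapped reads is not given in the sources used here. ATAC reads were aligned with BWA and deposited as counts per consensus peak. Histone files hold the deposited signal per base after RefSeq starts (750 bases for H3K4me3, 2000 for H3K27me3), and PU.1 files hold the peaks the authors called in each library with MACS2, with MACS2's deposited score, −log10 p-value, −log10 q-value and fold enrichment. OAL ATAC and histone libraries were not analysed here.

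From these, counts were fitted with edgeR 4.0.16 (filterByExpr, TMM, glmQLFit and glmQLFTest) in R 4.3.3, using only the groups compared, or all 4 groups for a difference of differences. A call needed a Benjamini-Hochberg adjusted p below 0.05 over all genes tested and a fold above 1.2. Standard errors were taken from the size of the log2 fold change and its F statistic. Levels are CPM scaled by TMM, within the diet and the transplant libraries apart. Old diet libraries held 23497989 to 34385179 counts, young ones 11102898 to 36579392 and transplant ones 35657999 to 44780217. A PU.1 summit within 1000 bases of a start counted. Nothing in the labels ties libraries to single animals, so p-values measure the spread between libraries. No 2 libraries of a group agreed within sampling noise.

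All 10 members are named, with the targeted genes, Mki67, the largest called changes in each pathway list and the 5 genes most like the members. Members and lists were chosen with earlier results of these data known. Scripts were tested on simulated counts. Alternatives were DESeq2 1.42.0, its size factors, other filters, TMM factors from genes of at least 5 CPM, a replicate block, all groups in 1 fit and leaving out each library.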

Additional observations from a re-analysis of the deposited data

Results flagged for a closer look

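Of 66 groups of 4 libraries examined over the members, 2 had a library far from the other 3 by Dixon's test at the 95% level, where chance alone flags about 1 group in 20. Mcm10 in YCR replicate 2 was at 6.21 CPM against 22.0 to 26.1 in the other 3 YCR libraries (gap over range 0.88). Cdt1 in YCRRF replicate 2 was at 17.1 CPM against 32.2 to 35.3 in the other 3 YCRRF libraries (gap over range 0.873).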

How the results depend on the processing

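In OCR versus OAL and OCRRF versus OCR all 10 members stayed called under every alternative except all diet groups in 1 fit. There 7 were called in each (without Mcm7, Mcm10 and Cdc6, and without Mcm10, Cdc6 and Gmnn). The share of all genes called in that fit is not given here for these comparisons. Its lower counts therefore cannot be read as particular to these genes. That fit called 9 of the pathway genes in OCR versus OAL and 5 in OCRRF versus OCR, where leaving out 1 library gave 21 to 45. In OCRRF versus OAL 6 members were called with DESeq2, 6 with its size factors, 4 without a filter on low counts, and 0 with TMM factors from genes of at least 5 CPM, with only genes of at least 5 CPM, with all groups in 1 fit or without any 1 library (range 0 to 0). In YCR versus YAL DESeq2 called 1 member and 4 pathway genes, and no filter 1 and 2. In YCRRF versus YCR DESeq2 called 5 members, no filter 7 and the fit of all groups 6. In YCRRF versus YAL DESeq2 called 1 pathway gene and no filter 2. For the difference between old and young responses DESeq2 called 4 members, no filter 1, a minimum of 10 counts 2, a mean of at least 5 CPM 2, and leaving out 1 library 0 to 1 (1 without YAL replicate 1 or OCR replicate 4). At an unadjusted p below 0.05 with a fold above 1.2, the Kdr knockdown gave 1 member and 7 pathway genes and the double knockdown 3 pathway genes. The share of all genes under this rule is not given here, so these counts cannot be read as particular to these genes. Without the fold threshold, 8.9% and 9.85% of all genes had an unadjusted p below 0.05 in these 2 comparisons. The Gmnn to Cdt1 difference of YCRRF and YAL ran from -0.562 to -0.362 without 1 library. The cause of these changes was not tested. Same-numbered RNA libraries of compared groups had correlations of -0.264 to 0.216 over 30 pairs, 2 above 0.1. Differently numbered pairs and ATAC libraries were not checked, so this cannot show whether the numbers pair the samples, which were treated as unpaired. With a replicate block 10 members were called in OCR versus OAL, 10 in OCRRF versus OCR, 3 in OCRRF versus OAL and 8 in OAL versus YAL. The block gave 762 ATAC peaks in place of 273, none at a member. Over single genes and settings, 1873 values kept their side of the threshold, 45 passed it newly and 32 lost it. Any sign changes of uncalled values were not counted apart and lie within the 1873. The 2 OCRRF libraries and the shallow YCRRF replicate 4 (11102898 counts) limit precision.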
